A study of Mus musculus with 16 samples.

Results

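Neuroblastoma arises from the sympathetic lineage of the neural crest, and the Th-MYCN mouse models it by driving human MYCN from the tyrosine hydroxylase promoter in neuroectodermal cells. To ask how sympathetic ganglia that carry the transgene differ from those that do not, all celiac ganglia of mice homozygous for Th-MYCN were compared with all celiac ganglia of mice lacking it. The comparison used 12 of the 16 mouse RNA-seq libraries of the study, 5 MYCN ganglia and 7 transgene-free ganglia, each from mice 2 weeks old, and left the 4 tumors out. It takes in every gene with enough counts. Of the MYCN ganglia, 3 were Runx1t1 wild-type and 2 were heterozygous for a Runx1t1 knock-out allele. Of the transgene-free ganglia, 4 were Runx1t1 wild-type and 3 heterozygous. Runx1t1 genotype was therefore a term of the model, so that the MYCN difference was estimated with genotype accounted for. The knock-out line was crossed with the Th-MYCN mice, so the groups may be of mixed background. Libraries are named here by transgene, Runx1t1 genotype and the replicate number of the labels, so that MYCN wt 3 is the MYCN Runx1t1 wild-type ganglion numbered 3 and no-MYCN het 4 the transgene-free Runx1t1 heterozygous ganglion numbered 4.

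MYCN is a basic helix-loop-helix transcription factor that binds E-boxes as a dimer with MAX and is best known for genes of growth and proliferation. In the sympathetic lineage, neuroblasts divide and express migration and differentiation factors before birth, then leave the cell cycle and take on the catecholamine synthesis, storage and release machinery of the mature neuron. Runx1t1 encodes a transcriptional corepressor of the ETO family that acts with histone deacetylases. A whole ganglion holds neurons, satellite glia, Schwann cells, fibroblasts and vessels, so in these data a lower level of a gene in fewer cells and a lower level in each cell cannot be told apart.

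No row of the tables names human MYCN, so the transgene was not checked by its RNA. Mouse Mycn, the endogenous gene, ranged from 34.6 to 58.5 counts-per-million (CPM) in MYCN ganglia and from 29.8 to 68.5 CPM in transgene-free ganglia (log2 fold change -0.02, SE 0.22, adjusted p = 0.977). Without the transgene, mean Runx1t1 RNA was higher in knock-out heterozygotes than in wild-type ganglia, and with it lower. Among transgene-free ganglia it was 8.58, 11.3, 13.3 and 12.4 CPM in wild-type replicates 1 to 4 and 13.5, 13.5 and 18.4 CPM in heterozygous replicates 1, 3 and 4. Every heterozygous value was above every wild-type value. The heterozygote minus wild-type log2 difference there was 0.41 (SE 0.56, adjusted p = 0.957). Among MYCN ganglia the mean was lower in heterozygotes, at 37.7 ± 16.8 CPM (SD, n = 2) against 129 ± 112 CPM (n = 3) in wild-type, and the value over all 12 ganglia was -0.42 (SE 0.55, edgeR adjusted p = 0.759). Gene-level counts may include RNA of the disrupted allele, so this does not check the genotype.

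Depth ran from 10692299 to 36337191 counts per library. The 6 libraries numbered 1 or 2 each held fewer than 20000000 counts and the 6 numbered 3 or 4 held more, with 3 MYCN and 3 transgene-free ganglia under that depth and 2 and 4 over it. Sympathetic neuron markers were abundant throughout, from 9214 to 27330 summed transcripts-per-million (TPM), although the labels give the cell type of every sample, ganglia included, as neuroblastoma. Library no-MYCN wt 2 stood apart from the other ganglia. Its 11 lymphocyte and thymocyte markers summed to 1167 TPM against 4.89 to 15.1 TPM elsewhere, and its MHC class I presentation genes to 5239 TPM against 368 to 1137 TPM. Sympathetic neuron markers summed to 9762 TPM in it, the lowest of the 7 transgene-free ganglia. The main counts are therefore also given without it. The labels number the replicates without saying whether each is a separate animal, so p-values measure the spread between these samples.

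No gene passed the test of MYCN against transgene-free ganglia. Of 15817 genes tested, edgeR's quasi-likelihood test called 0 at a Benjamini-Hochberg adjusted p under 0.05. At an unadjusted p under 0.05 there were 1742 genes (11.0%), of which 1294 (8.18%) had a higher and 448 (2.83%) a lower mean in MYCN ganglia. DESeq2, run on the same counts, design and genes, called 297 (1.88%), of which 289 (1.83%) were higher and 8 (0.0506%) lower, and limma on log2(TPM + 1) called 0. In 52 genes (0.329%) every MYCN ganglion lay above every transgene-free ganglion, and in 13 genes (0.0822%) every MYCN ganglion lay below. Without no-MYCN wt 2 edgeR again called 0 genes. The unadjusted counts were then 1877 higher (11.7%) and 441 lower (2.75%) of 16026 genes, and the non-overlapping counts 199 higher (1.26%) and 51 lower (0.322%). In the model without MYCN wt 3, 24 genes were called, all 24 with a positive difference, and without MYCN het 1, 7 genes were called, also with positive differences. Leaving out any of the other 10 ganglia gave 0 calls.

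**Figure D1:**
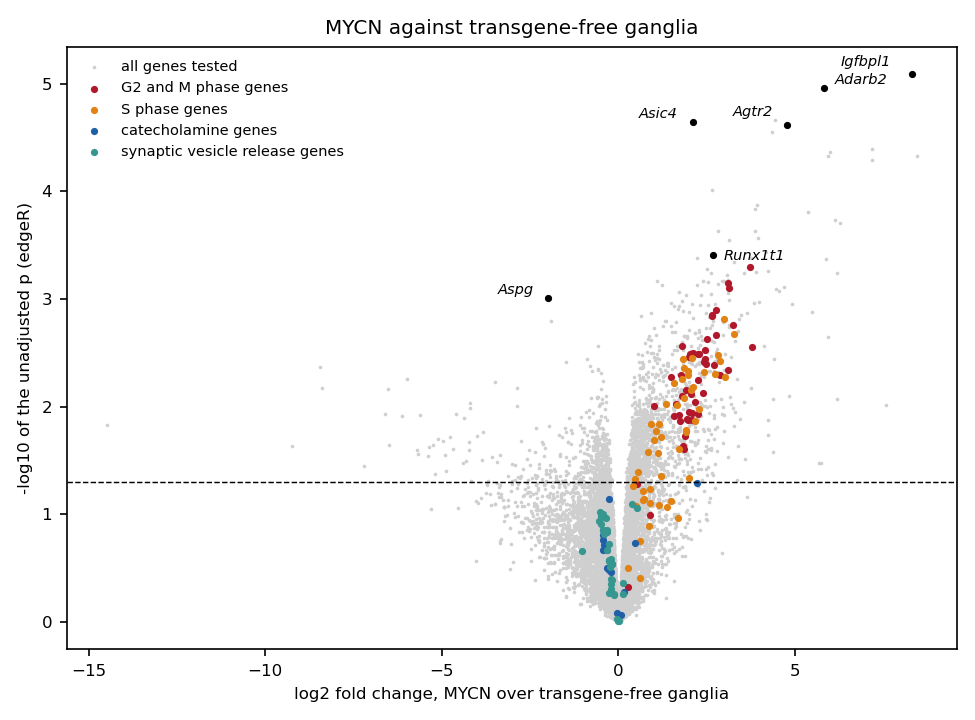
Each point is 1 of 15817 genes, placed by its log2 fold change (MYCN over transgene-free ganglia) and by −log10 of its unadjusted edgeR p, with 4 gene lists in colour and a dashed line at the unadjusted threshold of 0.05. Of the S phase genes 35 of 50 and of the G2 and M phase genes 47 of 50 lie above the line on the right, and none of the catecholamine or synaptic vesicle genes does; the fold of genes near 0 counts in 1 group, such as Igfbpl1, rests on the fit.

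The 11 genes with the lowest adjusted p shared the value 0.0728 and all had higher means in MYCN ganglia, and DESeq2 called each of them. They were Igfbpl1, Adarb2, Camkv, Asic4, Agtr2, Sytl4, Neurod6, Kcnip1, Slc35f2, Neurod1 and Nhlh2. Igfbpl1, on chromosome 4, encodes a secreted protein related to insulin-like growth factor binding proteins. Its level was 81.1, 0.507 and 23.3 CPM in MYCN wt 1, 3 and 4 and 3.89 and 12.98 CPM in MYCN het 1 and 2. The 7 transgene-free ganglia lay at 0 to 0.0903 CPM, median 0.0676, with 9 counts in all, and the pooled rates of the groups had a ratio of 348 (95% exact Poisson interval 183 to 762, counting error only), or 217 (114 to 475) without MYCN wt 1. The Adarb2 gene, for a brain-enriched relative of the RNA-editing adenosine deaminases, was at 40.4, 0.702 and 12.3 CPM in MYCN wt 1, 3 and 4 and 2.23 and 5.61 CPM in MYCN het 1 and 2. Its transgene-free range was 0.0602 to 0.324 CPM, median 0.169 (log2 fold change 5.83, SE 0.81, adjusted p = 0.0728). Camkv encodes a calmodulin kinase-like vesicle protein without known kinase activity. It measured 64.3, 3.51 and 27.6 CPM in MYCN wt 1, 3 and 4 and 3.96 and 11.8 CPM in MYCN het 1 and 2, against 0.304 to 1.17 CPM, median 0.816, without the transgene (log2 fold change 4.45, SE 0.66, adjusted p = 0.0728). In each of these genes the lowest MYCN ganglion still exceeded the highest transgene-free one, and the MYCN ganglia spanned a wider range in CPM than the transgene-free ganglia did.

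Asic4, a member of the acid-sensing ion channel family, had the smallest log2 difference and SE of the 11. It was at 12.1, 6.59 and 17.4 CPM in MYCN wt 1, 3 and 4 and 5.401 and 5.30 CPM in MYCN het 1 and 2, against 1.17 to 2.57 CPM, median 2.11, in transgene-free ganglia (log2 fold change 2.10, SE 0.31, adjusted p = 0.0728). The angiotensin II type 2 receptor gene Agtr2, typical of fetal tissues, lay at 206, 8.42 and 102 CPM in MYCN wt 1, 3 and 4 and 11.4 and 36.6 CPM in MYCN het 1 and 2. Transgene-free ganglia held 1.29 to 3.57 CPM, median 1.87 (log2 fold change 4.79, SE 0.72, adjusted p = 0.0728). Sytl4 encodes granuphilin, a Rab27 effector on secretory granules. It gave 536, 40.5 and 346 CPM in MYCN wt 1, 3 and 4 and 30.96 and 122 CPM in MYCN het 1 and 2, against 4.27 to 11.4 CPM, median 10.2 (log2 fold change 4.35, SE 0.66, adjusted p = 0.0728). The Kv4 channel-interacting protein gene Kcnip1 gave 52.5, 3.12, 27.9, 1.87 and 10.1 CPM in the same order of MYCN ganglia, against 0 to 0.487 CPM, median 0.242 (log2 fold change 5.995, SE 0.96, adjusted p = 0.0728). Slc35f2, of a nucleotide-sugar-transporter-like family, was the one gene of the 11 whose groups overlapped. It was at 82.7, 3.78, 43.1, 1.80 and 16.1 CPM against 0 to 2.73 CPM, median 0.203 (log2 fold change 5.95, SE 0.96, adjusted p = 0.0728). The overlap was between MYCN het 1 and no-MYCN wt 2, and without that library the groups were apart.

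Among the 11 were 3 neuronal basic helix-loop-helix factors. Neurod1, a factor of neuronal differentiation on chromosome 2, was at 33.7, 0.507 and 1.93 CPM in MYCN wt 1, 3 and 4 and 0.648 and 4.46 CPM in MYCN het 1 and 2. In 5 of the 7 transgene-free ganglia it had no count and in the other 2 a single count each, and the ratio of pooled rates was 408 (95% exact Poisson interval 112 to 3380, counting error only). MYCN wt 1 gave most of the 512 MYCN counts, and without it 151 were left and the ratio was 135 (36.7 to 1124). Neurod6 was at 15.5, 0.468 and 3.64 CPM in MYCN wt 1, 3 and 4 and 1.08 and 1.69 CPM in MYCN het 1 and 2, and its 3 transgene-free counts were all in no-MYCN wt 2. The ratio of pooled rates was 186 (95% exact Poisson interval 62.96 to 904, counting error only), or 109 (36.7 to 533) without MYCN wt 1. A fit with replicate number as a block called Neurod6 and no other gene. Nhlh2, a factor of developing neurons on chromosome 3, gave 37.7, 1.05 and 8.32 CPM in MYCN wt 1, 3 and 4 and 1.73 and 10.1 CPM in MYCN het 1 and 2, against 0 to 0.325 CPM, median 0 (log2 fold change 7.19, SE 1.17, adjusted p = 0.0728). MYCN wt 1 was the highest ganglion for each of these factors, and MYCN wt 3 the lowest. The gene models lie at chr4:45809468-45826923 (Igfbpl1, minus strand), chr13:8202866-8768747 (Adarb2, plus), chr9:107935674-107949691 (Camkv, plus), chr1:75450436-75474343 (Asic4, plus) and chrX:21484544-21489164 (Agtr2, plus) in GENCODE vM21 on GRCm38, and all 5 are protein-coding.

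**Figure D2:**
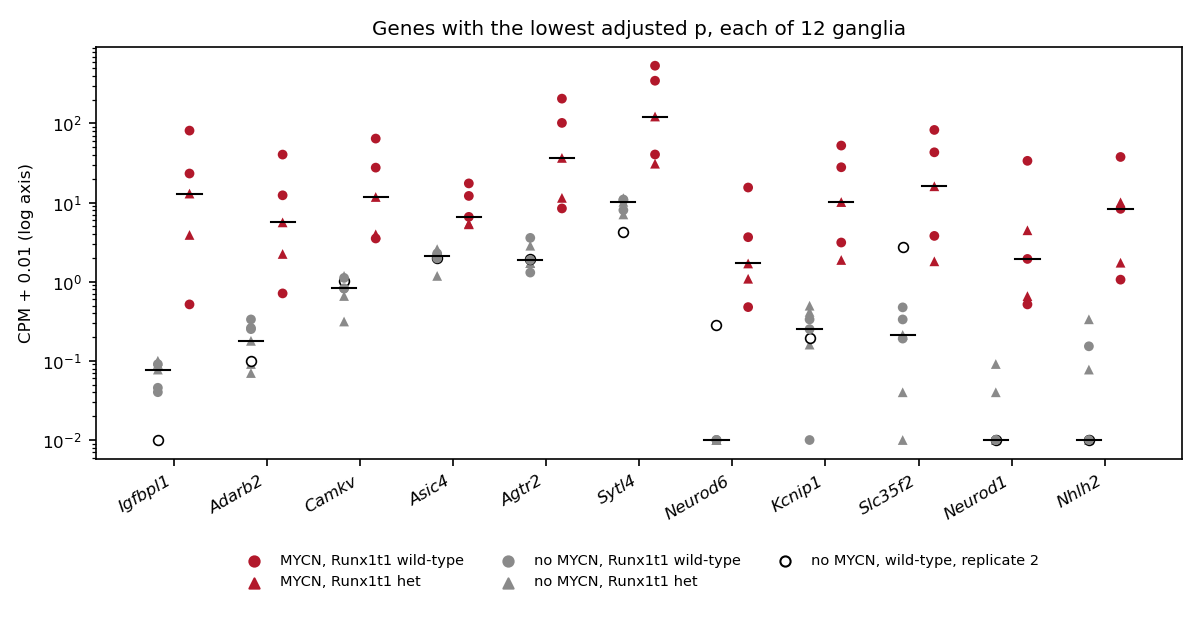
CPM of the 11 genes in each of 12 ganglia on a log axis, with 0.01 added so that 0 can be drawn. Red marks MYCN and grey transgene-free ganglia, circles Runx1t1 wild-type and triangles heterozygous ganglia, the open circle no-MYCN wt 2 and bars the group medians; in 10 of the 11 genes every red point lies above every grey or open one.

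Promoter windows are shown for 3 of these 11 genes, because MYC-family and basic helix-loop-helix factors bind E-boxes and Neurod1, Nhlh2 and Camkv separated the groups. Each runs from 250 bases before to 50 after the start site in RefSeq (GRCm38.p6), 5′ to 3′ on the gene's strand. Capitals mark matches to the 3 motifs searched, and other E-box letters are left in lower case. The letters searched on both strands were CACGTG, the canonical site of MYC-family dimers, with CAGCTG as a common site of neuronal basic helix-loop-helix factors, as well as CAGATG and its reverse complement. The windows are chr2:79456587-79456886 (Neurod1, minus strand), chr3:102009895-102010194 (Nhlh2, plus) and chr9:107935670-107935969 (Camkv, plus).
Neurod1: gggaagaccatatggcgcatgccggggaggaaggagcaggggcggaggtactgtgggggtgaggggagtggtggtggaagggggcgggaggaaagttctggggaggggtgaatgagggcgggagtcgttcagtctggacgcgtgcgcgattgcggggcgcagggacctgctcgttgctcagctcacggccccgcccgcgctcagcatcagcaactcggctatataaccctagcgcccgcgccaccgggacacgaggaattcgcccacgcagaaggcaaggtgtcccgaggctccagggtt
Nhlh2: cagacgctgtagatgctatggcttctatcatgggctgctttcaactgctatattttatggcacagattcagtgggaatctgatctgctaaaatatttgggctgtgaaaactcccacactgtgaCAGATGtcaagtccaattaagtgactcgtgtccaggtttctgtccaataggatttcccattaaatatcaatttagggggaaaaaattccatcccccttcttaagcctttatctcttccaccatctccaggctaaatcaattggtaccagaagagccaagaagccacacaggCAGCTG
Camkv: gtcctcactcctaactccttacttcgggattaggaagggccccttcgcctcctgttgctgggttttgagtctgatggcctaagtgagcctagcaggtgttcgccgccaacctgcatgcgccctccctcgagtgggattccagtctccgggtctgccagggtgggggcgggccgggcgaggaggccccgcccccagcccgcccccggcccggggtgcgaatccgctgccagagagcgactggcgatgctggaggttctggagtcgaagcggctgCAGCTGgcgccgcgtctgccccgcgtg
The Neurod1 window held none of the 3 motifs. In the Nhlh2 window CAGATG began at position −127 and CAGCTG at position 45 from the start site, and in the Camkv window CAGCTG began at position 24. Windows were found for 9 of the 11 genes, 11 windows in all. Of these 0 held CACGTG, the canonical MYC E-box, 27.3% held CAGCTG and 27.3% held CAGATG, against 7.15%, 16.3% and 17.2% of all 32851 windows and 9.32%, 16.1% and 12.3% of the 14996 windows of tested genes. For 38 of the 52 non-overlapping genes with higher means, 51 windows gave 5.88%, 21.6% and 13.7%. A match describes letters in the window, and no match says nothing about binding elsewhere.

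The same MYCN ganglion was usually the highest across these genes, while the lowest varied. MYCN wt 1 was the highest of the 5 in 46 of the 52 non-overlapping genes with higher means, MYCN wt 4 in 4, and MYCN wt 3 and MYCN het 1 in 1 each. The lowest was MYCN wt 3 in 22, MYCN het 1 in 20, MYCN het 2 in 7, MYCN wt 4 in 2 and MYCN wt 1 in 1. Wild-type ganglia thus stood at both ends. MYCN wt 1 held the lowest summed sympathetic neuron and glial marker levels of the 12 ganglia (9214 and 3933 TPM) and the largest share of counts in the ribosomal RNA gene Rn45s (8.80%, against 2.15% to 5.64%), and MYCN wt 3 the highest adipocyte marker level (3678 TPM), and their part in this order was not tested. Other genes of the 52 included Bdnf, the brain-derived neurotrophic factor, at 53.1, 3.001, 17.7, 2.45 and 8.603 CPM in MYCN wt 1, 3 and 4 and het 1 and 2, against 0.569 to 2.27 CPM, median 1.43 (log2 fold change 3.28, SE 0.68, adjusted p = 0.263). Gad2, a glutamate decarboxylase that makes GABA, was at 96.98, 3.04, 10.8, 3.89 and 15.98 CPM against 1.03 to 2.36 CPM, median 1.45 (log2 fold change 3.90, SE 0.84, adjusted p = 0.263). The transcription factor gene Nfe2l3 was at 293, 10.1, 105, 11.9 and 41.6 CPM against 3.91 to 6.25 CPM, median 4.86 (log2 fold change 3.92, SE 0.71, adjusted p = 0.164). Hlf, a PAR bZIP factor, was at 94.1, 11.8, 45.6, 12.03 and 23.6 CPM against 3.803 to 11.5 CPM, median 6.27 (log2 fold change 2.23, SE 0.46, adjusted p = 0.26). Bdnf, Gad2, Nfe2l3 and Hlf were chosen after their values were seen. Without MYCN wt 1 the log2 difference was 2.37 for Gad2, 2.46 for Bdnf and 3.07 for Nfe2l3. Of 137 genes examined in this way, 26 then had a fold change over 1.5 times smaller, including Igfbpl1, Adarb2, Camkv, Agtr2, Kcnip1, Nhlh2, Neurod1 and Neurod6 above and Runx1t1, Sox11, Prox1, Insm1, Cartpt, Dlk1, Alk, Hrk, Slit1, Slit2, Mki67 and Pbk below. Without no-MYCN wt 2, 15 of the 137 moved by over 1.5 times towards higher values. Among these were Slc35f2 and Neurod6 above and Insm1, Mki67, Ccnb1, Mcm5, Rrm2 and Mycl below. Each other left-out ganglion moved fewer genes by that much.

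Of the 40 gene lists examined, those of S phase and of G2 and M phase had the largest shares of members at an unadjusted p under 0.05. The lists were chosen with earlier results of these data known, so their shares describe the members and are no test of a list. All 50 S phase genes had positive log2 differences, from 0.27 to 3.28 with a median of 1.53, and 35 of 50 did so at an unadjusted p under 0.05 (all genes 8.18%). Of the 50 G2 and M phase genes, also all positive, 47 did so, with a median of 2.09 and a range of 0.28 to 3.80, while the median over all genes was -0.05. None of the 100 passed adjustment in edgeR, and DESeq2 called 18 of the S phase and 30 of the G2 and M phase genes (all genes 1.88%). No gene of either list separated the groups completely (all genes 0.329% higher). Library no-MYCN wt 2 was the highest transgene-free ganglion in 44 of 50 S phase and 49 of 50 G2 and M phase genes. Without it, 45 and 49 genes reached an unadjusted p under 0.05 (all genes 11.7%) and the medians were 1.85 and 2.74. Then 12 S phase and 11 G2 and M phase genes did not overlap between groups (all genes 1.26%). List counts and medians were not recomputed without MYCN wt 1.

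The level of the cycle program differed widely among MYCN ganglia. Summed TPM of the S phase genes was 3198, 550.2 and 1880 in MYCN wt 1, 3 and 4 and 489 and 891 in MYCN het 1 and 2. The transgene-free ganglia held 418 to 489.9 TPM apart from no-MYCN wt 2, at 1111 TPM. G2 and M phase genes summed to 4010, 449.8 and 2001 TPM in the wild-type and 315 and 908 TPM in the heterozygous MYCN ganglia, against 237 to 302 TPM and 924 TPM in no-MYCN wt 2. MYCN wt 1 was the highest MYCN ganglion for each of the 100 genes. MYCN het 1 was at or below the highest of the other 6 transgene-free ganglia in 34 of 50 S phase and 36 of 50 G2 and M phase genes, and MYCN wt 3 in 26 and 13. MYCN wt 4 was so in 1 and 0 and MYCN het 2 in 7 and 1. Most cycle genes in MYCN het 1 thus did not exceed the other transgene-free ganglia.

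**Figure D3:**
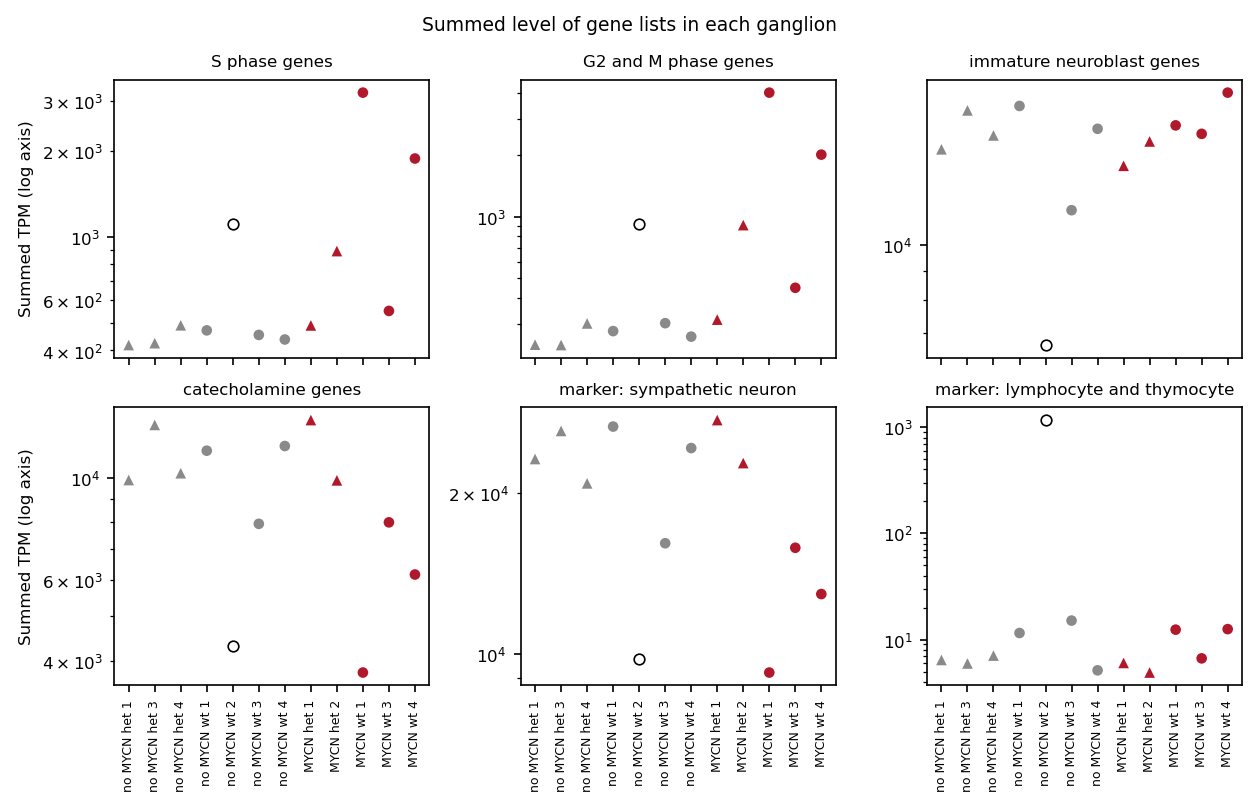
Summed TPM of 6 gene lists in each ganglion, on log axes, with red for MYCN, grey for transgene-free, circles for Runx1t1 wild-type, triangles for heterozygous and an open circle for no-MYCN wt 2. MYCN wt 1 is highest for S phase (3198 TPM) and G2 and M phase genes (4010 TPM) and lowest for catecholamine genes (3773 TPM), and lymphocyte markers stand out in no-MYCN wt 2.

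Among single cycle genes MYCN wt 1 was again the highest. List members named here and below, other than the 2 most abundant of a list, were chosen after their values were seen. Mki67, the proliferation antigen Ki-67, was at 1677, 79.6 and 643 CPM in MYCN wt 1, 3 and 4 and 55.6 and 271 CPM in MYCN het 1 and 2, against 28.9 to 386 CPM, median 41.8, in transgene-free ganglia (log2 fold change 2.40, SE 0.75, adjusted p = 0.369). Its transgene-free maximum was no-MYCN wt 2, and the next highest was 65.3 CPM. Cyclin B1, Ccnb1, which drives entry into mitosis, was at 87.5, 5.57, 36.8, 3.24 and 14.9 CPM in MYCN wt 1, 3 and 4 and het 1 and 2, against 0.933 to 13.2 CPM, median 1.93 (log2 fold change 3.12, SE 0.70, adjusted p = 0.266). The mitotic kinase gene Pbk was at 67.7, 4.68, 30.1, 1.22 and 7.61 CPM against 0.244 to 2.00 CPM, median 1.22 (log2 fold change 3.72, SE 0.79, adjusted p = 0.263). Among S phase genes, Mcm5, a subunit of the replicative helicase, was at 143, 10.99, 63.2, 8.35 and 23.3 CPM against 3.67 to 52.0 CPM, median 6.25 (log2 fold change 1.93, SE 0.69, adjusted p = 0.393). Rrm2, the small subunit of ribonucleotide reductase, was at 140.2, 7.17, 67.2, 4.68 and 19.97 CPM against 1.93 to 25.4 CPM, median 2.29 (log2 fold change 2.89, SE 0.81, adjusted p = 0.317). No-MYCN wt 2 was also the transgene-free maximum for Ccnb1, Mcm5 and Rrm2. Without it the log2 differences of Mki67, Ccnb1, Mcm5 and Rrm2 were 3.255, 3.866, 2.845 and 3.968. These were the highest over the fits that each left out 1 ganglion, and the lowest were 1.775, 2.56, 1.4 and 2.33. The most abundant members, here and below, are given as mean TPM ± SD over the 5 MYCN ganglia against the 7 transgene-free ganglia. Pcna, the sliding clamp of replication, averaged 91.8 ± 63.8 against 50.7 ± 20.4 TPM (log2 difference 0.73 (SE 0.37)), and the maintenance DNA methyltransferase Dnmt1 81.5 ± 48.1 against 43.7 ± 13.7 TPM. The spindle checkpoint gene Bub3 averaged 97.8 ± 34.5 against 66.97 ± 16.1 TPM. Of 19 regulators of G1, 2 had an unadjusted p under 0.05, both with higher means in MYCN ganglia (all genes 8.18%), and without no-MYCN wt 2 there were 5 (all genes 11.7%). The 2 were cyclin D1, Ccnd1, at 967, 194, 551, 234 and 290.1 CPM against 154 to 244 CPM, median 198 (log2 fold change 1.07, SE 0.35, adjusted p = 0.393), and its kinase Cdk4, with a log2 difference of 1.12 (SE 0.37).

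Genes of immature neuroblasts differed member by member. Of 31 tested, 12 had higher means at an unadjusted p under 0.05 (all genes 8.18%) and 0 lower. The median log2 difference was 0.57, for 23 positive and 8 negative members. Without no-MYCN wt 2 there were 11 higher (all genes 11.7%) and 1 lower (all genes 2.75%), with a median of 0.479. Igfbpl1, Nhlh2 and Neurod1 were the 3 without overlap (all genes 0.329%). All 3 are among the 11 genes above, and the list was chosen with earlier results known, so these shares do not test it. Sox11, a neuroblast transcription factor, was at 402, 36.95 and 187 CPM in MYCN wt 1, 3 and 4 and 31.7 and 87.9 CPM in MYCN het 1 and 2, against 16.1 to 38.5 CPM, median 29.4, in transgene-free ganglia (log2 fold change 2.18, SE 0.56, adjusted p = 0.305). Doublecortin, Dcx, a microtubule protein of migrating neurons, was at 526, 116, 345, 48.1 and 120.2 CPM in MYCN wt 1, 3 and 4 and het 1 and 2, against 30.4 to 73.9 CPM, median 55.6 (log2 fold change 1.86, SE 0.50, adjusted p = 0.314). The homeobox gene Prox1 was at 333, 16.7, 159, 31.2 and 72.7 CPM against 14.3 to 40.8 CPM, median 19.8 (log2 fold change 2.29, SE 0.58, adjusted p = 0.305), and the LIM-only gene Lmo3 at 29.0, 1.21, 11.01, 3.31 and 7.76 CPM against 1.18 to 3.18 CPM, median 1.38 (log2 fold change 2.49, SE 0.60, adjusted p = 0.287). Sox4, Stmn1, Basp1, Marcksl1 and Nnat had log2 differences of 0.94 (SE 0.36), 0.88 (SE 0.27), 0.62 (SE 0.27), 0.85 (SE 0.37) and 0.57 (SE 0.19). The 2 most abundant members had log2 differences of -0.15 (SE 0.25) and -0.08 (SE 0.24). The tubulin gene Tubb3 averaged 2161 ± 479 against 2447 ± 805 TPM, and the microtubule regulator Stmn2 2088 ± 475 against 2246 ± 678 TPM. These 2 genes are also high in mature neurons. The summed level of the list overlapped between groups (13720 to 18410 TPM against 6678 to 17450 TPM).

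Of 19 sympathoadrenal transcription factors, 8 had higher means at an unadjusted p under 0.05 (all genes 8.18%) and 0 lower (all genes 2.83%), with a median of 0.38. Among them were Gata3, Insm1, Insm2, Meis1, Meis2 and Eya1. Insm1, a zinc-finger factor of neuroendocrine progenitors, was at 212, 1.52 and 35.9 CPM in MYCN wt 1, 3 and 4 and 4.75 and 22.8 CPM in MYCN het 1 and 2. Its transgene-free range was 0.0301 to 3.36 CPM, median 0.324 (log2 fold change 5.88, SE 1.22, adjusted p = 0.26), and only MYCN wt 3 lay within it. Hand2 and Phox2a, the most abundant factors of the list, averaged 872 ± 121 against 879 ± 258 TPM for Hand2 and 379 ± 66.99 against 410.4 ± 147 TPM for Phox2a. Alk, a receptor kinase of the lineage that is mutated in neuroblastoma, was the single member of 16 neurotrophin and GDNF family receptors and related kinases with an unadjusted p under 0.05. It was at 183, 30.2 and 86.4 CPM in MYCN wt 1, 3 and 4 and 6.62 and 30.03 CPM in MYCN het 1 and 2, against 3.36 to 22.4 CPM, median 13.8 (log2 fold change 2.23, SE 0.81, adjusted p = 0.393), so that MYCN het 1 was within the transgene-free range. Ngfr, the p75 neurotrophin receptor gene, averaged 792 ± 407 against 1193 ± 473 TPM. Without no-MYCN wt 2 this receptor list had 1 higher (all genes 11.7%) and 2 lower means (all genes 2.75%) at an unadjusted p under 0.05.

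Genes of the mature sympathetic neuron gave no member of the catecholamine (17 tested), synaptic vesicle release (34), neurofilament and axonal cytoskeleton (18) or peptide and hormone receptor (19) lists at an unadjusted p under 0.05 (all genes 8.18% higher and 2.83% lower). The receptor list holds Agtr1a and Agtr1b but not Agtr2, described above. Their median log2 differences were -0.28, -0.26, -0.13 and -0.42, against -0.05 over all genes, and 4 of 17, 5 of 34, 6 of 18 and 6 of 19 members were positive, against 6924 of 15817 over all genes. Tyrosine hydroxylase, Th, the rate-limiting enzyme of catecholamine synthesis, was at 293, 835 and 491 CPM in MYCN wt 1, 3 and 4 and 1273 and 1126 CPM in MYCN het 1 and 2. Transgene-free ganglia held 578 to 1262 CPM, median 1069 (log2 fold change -0.42, SE 0.29, adjusted p = 0.53). Dbh, which makes noradrenaline from dopamine, was at 908, 1874 and 1452 CPM in MYCN wt 1, 3 and 4 and 3588 and 2295 CPM in MYCN het 1 and 2, against 1169 to 3596 CPM, median 2589 (log2 fold change -0.40, SE 0.29, adjusted p = 0.548). The noradrenaline transporter gene Slc6a2 was at 896, 2716, 1792, 3799 and 2266 CPM in MYCN wt 1, 3 and 4 and het 1 and 2, against 1105 to 4713 CPM, median 3361 (log2 fold change -0.43, SE 0.33, adjusted p = 0.566). Neuropeptide Y, Npy, a cotransmitter of noradrenaline, was at 173, 235, 166, 834 and 568 CPM against 299 to 744 CPM, median 594 (log2 fold change -0.76, SE 0.36, adjusted p = 0.46). In each of the 4 genes MYCN het 1 was the highest MYCN ganglion. For Th, Dbh and Slc6a2 MYCN wt 1 was the lowest, and for Npy MYCN wt 4. MYCN het 1 was also the lowest MYCN ganglion in 41 of 50 S phase and 46 of 50 G2 and M phase genes, and MYCN wt 1 the highest in all of them. Without no-MYCN wt 2, in which Th, Dbh and Slc6a2 were the lowest of the transgene-free ganglia, 2 catecholamine, 4 synaptic and 2 cytoskeleton genes had lower means at an unadjusted p under 0.05 (all genes 2.75%), and 1 synaptic gene a higher one (all genes 11.7%). Within Runx1t1 wild-type ganglia 7 catecholamine, 6 synaptic, 2 cytoskeleton and 4 receptor genes had lower means at that level (all genes 8.41%). There 2 catecholamine genes had higher means (all genes 11.5%). Within heterozygous ganglia 1 receptor gene had a lower mean (all genes 0.702%), and 1 catecholamine and 2 receptor genes higher means (all genes 0.664%).

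The most abundant members of these lists had group means that differed by less than the spread of the ganglia. Peripherin, Prph, a neurofilament protein of peripheral neurons, averaged 2781 ± 1084 against 3261 ± 975 TPM, and the microtubule protein gene Map1b 1785 ± 533 against 2183 ± 743 TPM. Complexin 2, Cplx2, and synaptotagmin 1, Syt1, which clamp and trigger vesicle fusion, averaged 711 ± 307 against 980.4 ± 326 TPM for Cplx2 and 590.1 ± 319 against 790.0 ± 288 TPM for Syt1. Among 16 neuropeptides and granule proteins, Cartpt and Adcyap1 had higher (all genes 8.18%) and Vgf lower (all genes 2.83%) means at an unadjusted p under 0.05. The Cartpt gene, for the CART peptide, was at 207, 3.98 and 58.8 CPM in MYCN wt 1, 3 and 4 and 8.06 and 29.3 CPM in MYCN het 1 and 2, against 0.273 to 5.64 CPM, median 1.96 (log2 fold change 4.55, SE 1.03, adjusted p = 0.27), and MYCN wt 3 was within the transgene-free range. Chrna4, a nicotinic receptor subunit, was the single member of 11 cholinergic genes at that level, with all MYCN ganglia above the others (7.83, 1.29, 7.31, 1.15 and 2.304 CPM against 0.0909 to 0.9997 CPM, median 0.812; log2 fold change 2.36, SE 0.62, adjusted p = 0.307). The main ganglionic subunit gene Chrna3 averaged 278 ± 98.02 against 340.0 ± 127 TPM, and acetylcholinesterase, Ache, 269 ± 155 against 355 ± 115 TPM.

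Ion channel and axon guidance lists had members with higher and members with lower means. Of 41 potassium channel genes, Kcnip1, Kcnmb2, Kcnd2, Kcnj6 and Kcnk2 had higher means and Kcnab2 a lower mean at an unadjusted p under 0.05 (all genes 8.18% and 2.83%), and the median over the list was -0.23. Without no-MYCN wt 2 the list had 4 higher (all genes 11.7%) and 5 lower means (all genes 2.75%) at that level. Of 25 sodium and calcium channel genes, Cacna1d and Cacnb2 had higher means at that level, and 3 genes, Scn4b among them, lower means. This list holds Asic1 and Asic2 but not Asic4, described above. Kcnmb4 and Kcnq3, the most abundant potassium channel genes, averaged 249 ± 117 against 322 ± 88.5 TPM for Kcnmb4 and 87.1 ± 48.7 against 104 ± 26.9 TPM for Kcnq3. Cacnb3, a calcium channel subunit, averaged 166 ± 32.9 against 185 ± 45.2 TPM. Among 42 axon guidance genes 9 had higher and 3 lower means at an unadjusted p under 0.05. The repellent ligand genes Slit1 and Slit2 were at 135, 7.21, 44.8, 5.11 and 31.8 CPM and 351, 41.2, 161, 35.1 and 71.05 CPM in MYCN wt 1, 3 and 4 and het 1 and 2. Transgene-free ganglia held 1.03 to 5.66 CPM, median 2.14, and 11.6 to 39.7 CPM, median 29.8 (log2 fold change 3.96, SE 0.78, adjusted p = 0.212, and log2 fold change 2.01, SE 0.55, adjusted p = 0.316). Their receptor gene Robo1 was at 13.99, 12.9, 13.9, 16.8 and 12.7 CPM, against 10.6 to 47.3 CPM, median 24.8 (log2 fold change -0.92, SE 0.31, adjusted p = 0.393). The ephrin gene Efnb3 was at 47.7, 26.7, 46.7, 12.7 and 20.4 CPM against 6.45 to 19.8 CPM, median 10.7 (log2 fold change 1.26, SE 0.32, adjusted p = 0.301). Plexin A4, Plxna4, the most abundant guidance gene, averaged 144 ± 35.2 against 147 ± 47.8 TPM, and Sema6d 110.5 ± 24.97 against 116 ± 28.4 TPM. Sema4d and Plxnd1 were the other 2 with lower means at that level.

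Growth genes commonly placed among MYC targets had mostly positive differences (all genes 6924 of 15817), and none passed adjustment. Of 49 nucleolar ribosome biogenesis genes, 44 were positive, with a median of 0.30, a range of -0.17 to 0.87 and 7 at an unadjusted p under 0.05 (all genes 8.18%). These 7 were Nop56, Nop58, Nop16, Nolc1, Wdr12, Polr1b and Pa2g4. Nucleophosmin, Npm1, averaged 591 ± 269 against 420.5 ± 135 TPM, and nucleolin, Ncl, 253 ± 87.97 against 190.1 ± 28.3 TPM. Summed TPM of the list was 4085, 2062, 3219, 1938 and 2313 in MYCN wt 1, 3 and 4 and het 1 and 2. The transgene-free range was 1856 to 2038 TPM apart from no-MYCN wt 2, at 2903 TPM. Without that library 21 of the 49 had higher means at an unadjusted p under 0.05 (all genes 11.7%). Of 33 polyamine and nucleotide synthesis genes, 3 had higher means at that level, Odc1, Pfas and Shmt1, and 1 a lower, Prps2 (all genes 2.83%), and 6 had higher means without no-MYCN wt 2. Odc1, the rate-limiting enzyme of polyamine synthesis and a known MYC target, was at 30.03 to 129.7 CPM (median 45.4) in MYCN ganglia and 24.7 to 47.7 CPM (median 29.8) in transgene-free ganglia, with a log2 difference of 0.85 (SE 0.28). Of 31 genes listed as translation factors and chaperonin, 29 were positive, with a median of 0.15. Eif4a1, Hspd1 and Set, a histone chaperone gene placed in this list, reached an unadjusted p under 0.05, and 5 genes did without no-MYCN wt 2. The elongation factor gene Eef2 averaged 1732 ± 223 against 1548 ± 228 TPM, and Eif5a 484 ± 81.7 against 429 ± 26.2 TPM.

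**Figure D4:**
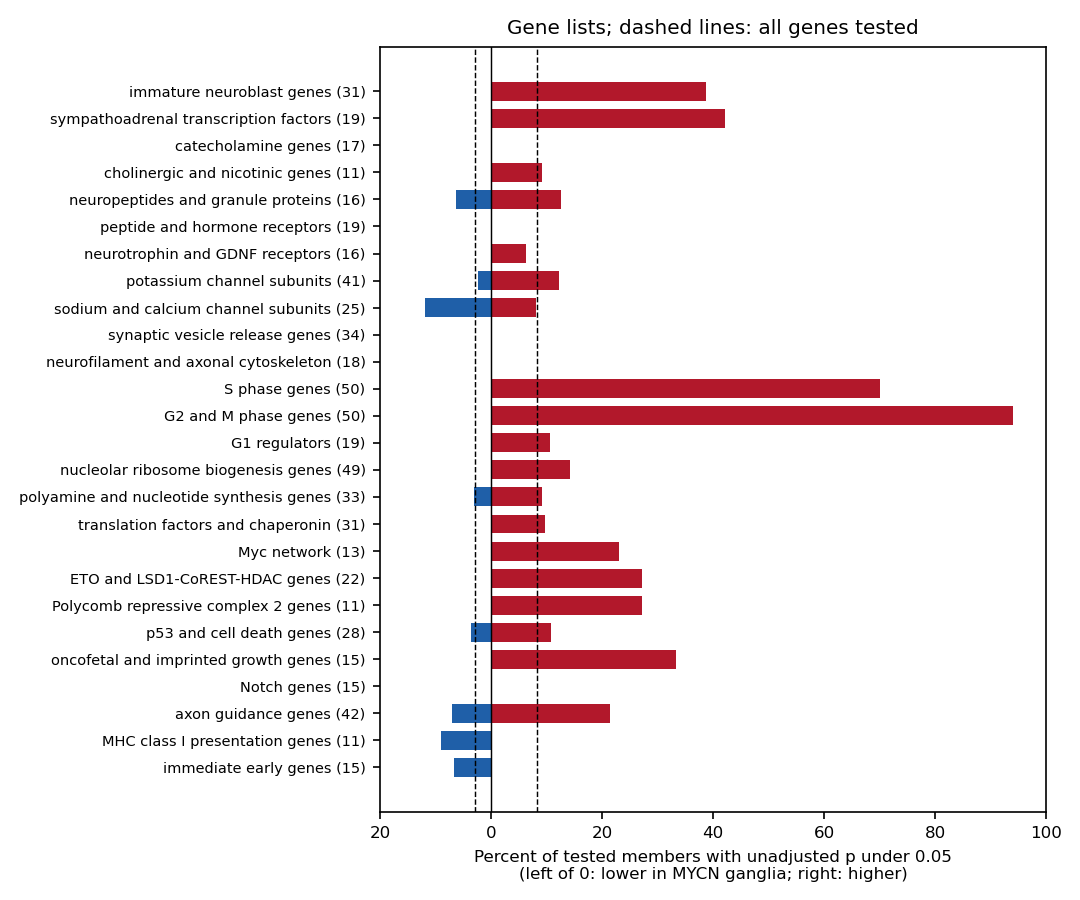
Share of tested members (number in brackets) of 26 gene lists with an edgeR unadjusted p under 0.05, with higher means in MYCN ganglia to the right and lower to the left of 0. Dashed lines mark the share over all genes tested, 8.18% higher and 2.83% lower; the cycle lists, with 35 and 47 of 50 members, lie furthest to the right.

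Of the 13 genes of the Myc network, Mycl, Mxd3 and Mxi1 had higher means at an unadjusted p under 0.05 (all genes 8.18%), and none passed adjustment. Without no-MYCN wt 2 there were 5 (all genes 11.7%). Mycl, a MYC paralog, was at 54.8, 6.32 and 24.2 CPM in MYCN wt 1, 3 and 4 and 4.03 and 10.6 CPM in MYCN het 1 and 2. The transgene-free ganglia held 1.46 to 21.2 CPM, median 3.17 (log2 fold change 1.75, SE 0.63, adjusted p = 0.393), with no-MYCN wt 2 as the maximum, and without that library the groups did not overlap. Mxd3, a MAX partner of proliferating cells, was at 17.9, 2.57, 9.62, 0.936 and 3.38 CPM against 0.512 to 3.36 CPM, median 1.95 (log2 fold change 1.64, SE 0.63, adjusted p = 0.405). Mxi1, a MAX partner that opposes MYC, was at 119.6, 61.4, 77.5, 69.9 and 69.1 CPM against 48.4 to 75.2 CPM, median 55.9 (log2 fold change 0.46, SE 0.17, adjusted p = 0.396). Myc was at 13.8, 22.9, 15.4, 13.3 and 13.8 CPM against 14.4 to 48.3 CPM, median 15.8 (log2 fold change -0.36, SE 0.30, adjusted p = 0.592), again with no-MYCN wt 2 as the maximum. Max, the common partner, averaged 58.3 ± 5.31 against 56.2 ± 3.48 TPM, and Mxd4, the most abundant of the network, 61.1 ± 14.1 against 66.3 ± 26.5 TPM. The repressors Mnt and Mga had log2 differences of 0.10 (SE 0.10) and 0.37 (SE 0.17). Those of Mxd1, Mlx, Mlxip and Mlxipl were -0.06 (SE 0.22), -0.12 (SE 0.14), 0.06 (SE 0.24) and -0.62 (SE 0.84).

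Runx1t1, at chr4:13743436-13893649 on the plus strand, was among the 52 genes whose groups did not overlap. It was at 247, 23.9 and 116 CPM in MYCN wt 1, 3 and 4 and 25.9 and 49.6 CPM in MYCN het 1 and 2. Transgene-free ganglia held 8.58 to 18.4 CPM, median 13.3 (log2 fold change 2.68, SE 0.55, adjusted p = 0.26), and DESeq2 called it (adjusted p = 3.62e-05). Under the edgeR fits that each left out 1 ganglion its log2 difference ranged from 2.04 to 3.06 and its adjusted p from 0.0505 to 0.601. Of 22 genes listed with the ETO and LSD1-CoREST-HDAC corepressors, 6 had higher means at an unadjusted p under 0.05 (all genes 8.18%). Besides Runx1t1 they were its paralog Cbfa2t2, the corepressor Rcor2, the histone deacetylase gene Hdac2 and the transcription factor genes Insm1 and Tcf4. Without no-MYCN wt 2 there were 9 (all genes 11.7%). Rcor2 was at 66.8, 9.94, 35.1, 9.29 and 17.4 CPM in MYCN wt 1, 3 and 4 and het 1 and 2, against 3.18 to 11.7 CPM, median 8.34 (log2 fold change 1.57, SE 0.50, adjusted p = 0.384). Hdac2 averaged 189 ± 57.2 against 130.3 ± 16.9 TPM. Of 11 Polycomb repressive complex 2 genes 3 had higher means at that level, Ezh2, Rbbp4 and Mtf2, and 5 did without no-MYCN wt 2. The methyltransferase gene Ezh2 was at 114, 20.9, 63.1, 13.03 and 27.8 CPM against 10.02 to 37.4 CPM, median 14.2 (log2 fold change 1.304, SE 0.42, adjusted p = 0.389). The histone-binding subunit genes Rbbp7 and Rbbp4 averaged 180.0 ± 13.9 against 183 ± 17.1 TPM for Rbbp7 and 65.98 ± 10.96 against 53.3 ± 3.24 TPM for Rbbp4.

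Among 15 oncofetal and imprinted growth genes, Dlk1, Igf2bp1, Igf2bp3, Lin28b and Grb10 had higher means at an unadjusted p under 0.05 (all genes 8.18%) and none a lower mean. Dlk1, an imprinted Notch-family ligand of chromaffin and neuroblast precursors, was at 623, 31.9 and 212 CPM in MYCN wt 1, 3 and 4 and 39.2 and 141 CPM in MYCN het 1 and 2, against 18.0 to 46.7 CPM, median 22.98 (log2 fold change 2.74, SE 0.64, adjusted p = 0.276). Igf2bp1, a fetal RNA-binding protein, was at 2.704, 1.95, 24.2, 0.36 and 2.23 CPM against 0.0909 to 1.28 CPM, median 0.512 (log2 fold change 3.20, SE 1.04, adjusted p = 0.389), and here MYCN wt 4 and not MYCN wt 1 was the highest. Without MYCN wt 4 the log2 difference of Igf2bp1 was 1.75. Lin28b, which blocks let-7 maturation, was at 17.2, 3.001, 9.297, 5.83 and 8.99 CPM against 1.45 to 8.04 CPM, median 4.14 (log2 fold change 1.06, SE 0.44, adjusted p = 0.435). The imprinted long RNA Meg3 averaged 523 ± 127 against 394 ± 108 TPM, and Peg3 276 ± 96.1 against 319 ± 70.9 TPM. Of 28 p53 and cell death genes, 3 had higher means at an unadjusted p under 0.05, Hrk and Bax among them, and Casp9 a lower mean (all genes 8.18% and 2.83%), and without no-MYCN wt 2 there were 5 higher and 0 lower (all genes 11.7% and 2.75%). Hrk, a BH3-only protein of neuronal apoptosis, was at 111, 15.6, 45.2, 8.57 and 19.8 CPM in MYCN wt 1, 3 and 4 and het 1 and 2, against 2.18 to 8.12 CPM, median 7.43 (log2 fold change 2.56, SE 0.62, adjusted p = 0.287), with no overlap. Bcl2l1 and Mcl1, which oppose apoptosis, averaged 108 ± 21.9 against 121 ± 22.3 TPM for Bcl2l1 and 86.2 ± 6.805 against 94.8 ± 46.5 TPM for Mcl1. No Notch pathway gene of 15 reached an unadjusted p under 0.05, and Jag2 and Notch1 averaged 57.2 ± 22.03 against 40.95 ± 9.93 TPM for Jag2 and 35.8 ± 14.4 against 44.8 ± 9.12 TPM for Notch1. Of 11 MHC class I presentation genes Psmb10, and of 15 immediate early genes Junb, had lower means at that level in the full comparison and no member did so without no-MYCN wt 2.

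Among the genes with lower means in MYCN ganglia, those with the smallest p included Aspg, LOC100504703, Prr13 and Lacc1, with adjusted p from 0.276 to 0.317. Aspg, an asparaginase, was at 0.653, 1.05 and 0.68 CPM in MYCN wt 1, 3 and 4 and 1.58 and 0.538 CPM in MYCN het 1 and 2. Transgene-free ganglia held 0.909 to 5.64 CPM, median 3.85 (log2 fold change -1.99, SE 0.46, adjusted p = 0.276), and the lowest was no-MYCN wt 2, without which the groups did not overlap. Lacc1, a purine nucleoside enzyme of macrophages and other cells, was at 1.96, 2.81, 3.13, 2.88 and 2.77 CPM in MYCN wt 1, 3 and 4 and het 1 and 2, against 3.87 to 7.45 CPM, median 4.799 (log2 fold change -0.89, SE 0.25, adjusted p = 0.317). LOC100504703, an uncharacterised locus, was at 0.0932, 0.195, 0.0815, 0.144 and 0.154 CPM against 0.338 to 0.65 CPM, median 0.545 (log2 fold change -1.91, SE 0.47, adjusted p = 0.289). Prr13, a proline-rich protein gene, was at 39.6, 72.3, 53.7, 71.1 and 75.9 CPM against 75.8 to 114 CPM, median 92.8 (log2 fold change -0.57, SE 0.15, adjusted p = 0.314), and MYCN het 2, at 75.9 CPM, just overlapped no-MYCN wt 3, at 75.8 CPM. Lacc1 and LOC100504703 were separated between all ganglia. Their gene models are at chr12:112106679-112127559 (Aspg), chr15:102459028-102462806 (Prr13) and chr14:77024200-77036904 (Lacc1).

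Within each Runx1t1 genotype the MYCN difference, taken from a model with an interaction term, gave 0 genes at an adjusted p under 0.05. Among Runx1t1 wild-type ganglia (3 against 4), 3155 genes (19.9%) had an unadjusted p under 0.05, of which 1825 (11.5%) had higher and 1330 (8.41%) lower means in MYCN ganglia. Among heterozygous ganglia (2 against 3) there were 216 (1.37%), 105 higher (0.664%) and 111 lower (0.702%). The test of the difference itself, the MYCN by Runx1t1 interaction, called 0 genes in edgeR, with a lowest adjusted p of 0.164, 943 genes (5.96%) at an unadjusted p under 0.05, and 59 called by DESeq2. The edgeR test thus does not show the larger count in wild-type than in heterozygous ganglia to be a difference between the genotypes. DESeq2 differed from it in calling 59 genes. The median log2 difference of the G2 and M phase genes was 2.53 within wild-type and 1.56 within heterozygous ganglia, and that of the S phase genes 1.74 and 0.87. Some other lists had medians nearer 0 within heterozygotes. Those of the immature neuroblast genes were 0.745 and -0.073, of the ribosome biogenesis genes 0.468 and 0.079, of the translation factors 0.264 and 0.0084, of the catecholamine genes -0.504 and 0.0295 and of the MHC class I genes -1.59 and 0.043, and these differences were not tested. No-MYCN wt 2, with the highest MHC class I level, is 1 of the 4 wild-type transgene-free ganglia. Without it the MHC class I median over both genotypes was -0.23 in place of -0.888. That of the catecholamine genes was then -0.344 in place of -0.277. Further lists had medians further from 0 within heterozygotes, also not tested. The cholinergic genes had -0.288 within wild-type and -0.386 within heterozygous ganglia, and the glial markers -0.151 and -0.367. Adipocyte markers had 0.0858 and -2.16, and skeletal muscle markers 1.02 and -3.25. Runx1t1 itself had 3.50 (SE 0.58) within wild-type and 1.31 (SE 0.66) within heterozygous ganglia (interaction adjusted p = 0.812). The within-genotype values for Dcx were 2.69 and 0.47 (interaction adjusted p = 0.797). Those for Alk were 3.38 and 0.06 (adjusted p = 0.812). For Npy they were -1.52 and 0.23 (adjusted p = 0.756), and Th and Dbh also had opposite signs, -0.82 and 0.12, and -0.70 and 0.02. Among the 6 ganglia under 20000000 counts and the 6 over it, analysed separately, the Agtr2 values were 5.54 and 4.34 and the Asic4 values 1.96 and 2.55. As every MYCN ganglion lay above every transgene-free one in these genes, their direction there was fixed by how they were chosen.

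**Figure D5:**
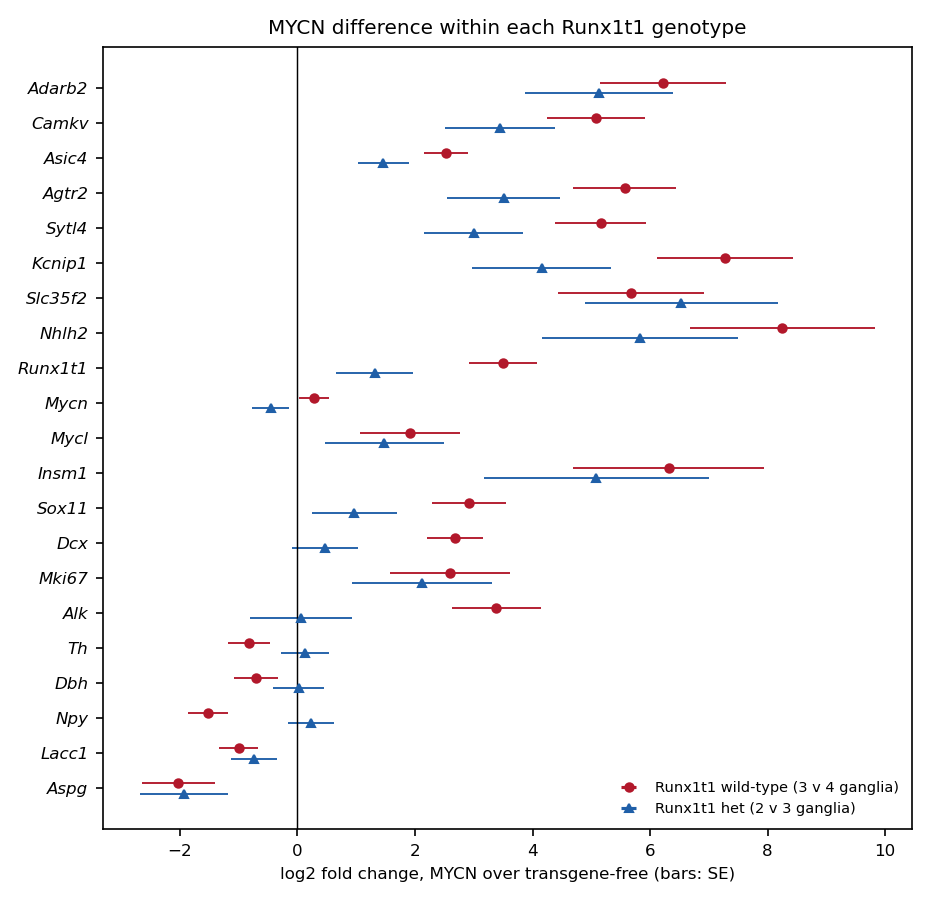
Log2 fold change of MYCN over transgene-free ganglia within Runx1t1 wild-type (red circles) and heterozygous ganglia (blue triangles), with SE bars. The genes shown had over 3 counts in at least 1 transgene-free ganglion, and some were near 0 counts in others. Alk reads 3.38 and 0.06 and Slc35f2 5.67 and 6.53, the last resting on 0, 1 and 6 counts in transgene-free heterozygotes. No interaction passed adjustment in edgeR.

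Markers of other cell types varied between libraries, and their part in the results was not tested. Sympathetic neuron markers summed to 9214, 15770 and 12920 TPM in MYCN wt 1, 3 and 4 and 27330 and 22710 TPM in MYCN het 1 and 2, against 9762 to 26580 TPM. Of the 16 markers, 2 had higher means at an unadjusted p under 0.05, Gata3 among them, and 0 lower (all genes 8.18% higher and 2.83% lower, here and for the markers that follow). Satellite glia and Schwann cell markers (14 tested, 0 at that level) summed to 3933 to 8308 TPM in MYCN and 4827 to 8548 TPM in transgene-free ganglia, and MYCN wt 1 was the lowest. Apoe, the most abundant, averaged 4765 ± 1075 against 4918 ± 880.3 TPM. Fibroblast markers (8 tested, Fbln1 higher) summed to 991 to 3638 and 1730 to 7976 TPM. For endothelium (8 tested, 0 at that level) the ranges were 42.9 to 241 and 68.2 to 878 TPM. Smooth muscle and pericyte markers (7 tested) had lower means in Acta2, Myh11, Rgs5 and Pdgfrb and ranged from 30.1 to 147 and 82.3 to 451 TPM, with 1 lower at that level without no-MYCN wt 2.

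Macrophage markers (9 tested, 0 at that level) ranged from 101 to 282 TPM in MYCN ganglia, and from 48.1 to 153 TPM in transgene-free ganglia other than no-MYCN wt 2, at 709 TPM. Without that library 2 of the 9 had higher means at that level (all genes 11.7%), and the median log2 difference was 0.73 in place of -0.04. Of 8 lymphocyte and thymocyte markers tested, 3 had lower means at an unadjusted p under 0.05 (all genes 2.83%), Cd3g and Cd79a among them, and Rag1 a higher mean, and without that library 1 was higher and 0 lower. Markers of tissues near the celiac ganglion varied by library. Adrenal cortex markers reached 63.8 TPM in MYCN het 1 and 101 TPM in no-MYCN wt 3, and adipocyte markers 3678 TPM in MYCN wt 3 and 2379 TPM in no-MYCN wt 3, against 131 TPM in MYCN wt 1. Liver markers reached 449.9 TPM in MYCN wt 4 and 395.6 TPM in no-MYCN wt 3, and skeletal muscle markers lay between 11.0 and 239 TPM. Pancreas markers summed to at most 13.1 TPM, with 1 of 8 tested and 2 of 8 without a count in any ganglion. Erythroid markers ranged from 369 to 9884 TPM, and chromaffin markers, among them Cartpt, from 363 to 1405 TPM, with no other member at an unadjusted p under 0.05 in either list.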

How the data were processed

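RNA from 12 celiac ganglia was sequenced and, per the study's methods, the authors aligned reads with STAR to mm10 and estimated gene-level expression with RSEM. The strand setting of the counting is not given in the sources used here, so a gene and an overlapping antisense gene cannot be told apart. The deposited tables hold estimated counts (expected counts, not normalised) and TPM from RSEM. A library label calls the RNA polyA while the methods name a total RNA kit. Column headers reading Hom for Runx1t1 were taken as Runx1t1 wild-type, as the sample titles have it.

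Expected counts were rounded to whole numbers (6.05% of values were not whole), which limits precision only at low counts. Totals were 10692299 to 36337191 per ganglion. In R 4.3.3, edgeR 4.0.16 tested MYCN with Runx1t1 genotype as a term (TMM scaling, filterByExpr by the 4 genotype groups, robust quasi-likelihood fit, Benjamini-Hochberg threshold 0.05, two-sided), leaving 15817 of 24411 genes. CPM are counts-per-million over TMM-scaled library sizes. The MYCN by Runx1t1 interaction was tested in a second fit. Replicate numbers were not used to pair samples. Alternatives were DESeq2 1.42.0, limma 3.58.1 on log2(TPM + 1) and log2(TPM + 0.1), upper-quartile scaling, no filter, at least 10 counts in every ganglion, a replicate block, terms for depth or sex (Ddx3y over 1 CPM), no Rn45s, no Runx1t1 term, tumors in the fit, ganglia under or over 20000000 counts, each genotype alone, each ganglion left out and, chosen after seeing the data, a fit without the robust step and count ratios without MYCN wt 1. Intervals of count ratios are 95% exact Poisson intervals and cover counting error only.

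The rule for named genes asked for adjusted p under 0.05, a mean TPM of at least 1 and no overlap between groups. As no gene qualified, it named the 5 genes of each direction with the smallest p and a mean TPM of at least 1, Runx1t1, the Myc network and the 2 most abundant members of each list. The genes compared, the 40 lists and the genes named beyond the rule were chosen with earlier results of these data known, and the fits were tested on simulated data with known changes. Some genes that the rule or a list would name are not reported here. The tumors were left out.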

Additional observations from a re-analysis of the deposited data

Results flagged for a closer look

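In groups of 5 or 7 ganglia, a library was singled out where its gap to the nearest other library took up most of the group's range (Dixon's ratio over its 95% critical value). This was examined for 17 genes and 40 lists in 114 groups and singled out 23, where chance gives about 1 in 20 groups. Library MYCN wt 1 was high among the 5 MYCN ganglia for Igfbpl1 (ratio 0.718), Neurod6 (0.789), Neurod1 (0.881) and Nhlh2 (0.754). Other MYCN ganglia stood apart in the summed TPM of 4 lists. These were axon guidance genes in MYCN het 1 (0.742), adrenal cortex markers in MYCN het 1 (0.853), liver markers in MYCN wt 4 (0.815) and adipocyte markers in MYCN wt 3 (0.926).

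Among the 7 transgene-free ganglia, no-MYCN het 1 was high for Neurod1 (0.63), on a single count, and no-MYCN wt 2 for Neurod6 (ratio 1, since the other 6 ganglia had no count) and Slc35f2 (0.83). No-MYCN wt 2 was also low for potassium channel genes (0.58) and axon guidance genes (0.673). It was high for S phase (0.896), G2 and M phase (0.904), nucleolar ribosome biogenesis (0.826), Myc network (0.661), ETO and LSD1-CoREST-HDAC (0.687), p53 and cell death (0.608) and MHC class I genes (0.933). It was likewise high for endothelium (0.626), macrophage (0.841) and lymphocyte and thymocyte markers (0.991). The part of this library in any difference between the groups was measured only by leaving it out.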

How the results depend on the processing

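With 0 genes called by edgeR, other settings called 297 (DESeq2), 16 (tumors in the fit), 9 (no Runx1t1 term), 1 (ganglia over 20000000 counts, Eif3j1) and 0 to 24 when single ganglia were left out (7 without MYCN het 1, 24 without MYCN wt 3). The replicate block called 1 gene, Neurod6 (adjusted p = 0.0185). The deviations of same-numbered ganglia correlated at r from -0.132 to 0.259 in 9 pairs, with 2 over 0.1, against -0.304 to 0.171 in 26 pairs of other numbers. The 2 highest of all these r, 0.259 and 0.237, were of same-numbered ganglia. Deviations of the 2 MYCN het ganglia are equal and opposite, so not every pair could be over 0.1 and these values cannot decide on pairing. The numbers were not used to pair ganglia, although numbers 1 and 2 go with lower depth than 3 and 4. Upper-quartile scaling, no filter, at least 10 counts, terms for depth or sex, no Rn45s and both limma fits called 0. So did ganglia under 20000000 counts, the MYCN difference within each genotype from the interaction fit, and the fit without the robust step. For the interaction DESeq2 called 59 genes and each other setting, the block and every left-out ganglion included, 0. The cause of these differences was not tested. The median log2 difference of all genes was at most 0.0658 in size under any alternative.

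Of 66 genes followed, 11 changed sign in 34 of 1887 gene settings, none of them past the threshold in the reported fit, and 78 gene settings kept the sign and passed the threshold. On the log2 scale, Mycn was positive with no filter (0.003991), the replicate block (0.05686), the depth term (0.01989), limma (0.007007 and 0.008119), under and over 20000000 counts (0.03518 and 0.35) and within wild-type (0.2763), and ran from -0.11 to 0.1599 over left-out ganglia. Myc was 0.3449 over 20000000 counts and -0.4768 to 0.008464 over left-out ganglia. Max was -0.07933 within heterozygous ganglia and -0.0103 to 0.1349 over left-out ganglia. Mxd1 was 0.02883 with the sex term, 0.0135 and 0.09609 under and over 20000000 counts, 0.0199 within wild-type and -0.1543 to 0.17 over left-out ganglia. Mxd4 was 0.2503 within heterozygous ganglia and -0.2299 to 0.1322 over left-out ganglia. Mlxip was -0.02118 to 0.3611 over left-out ganglia. Mlxipl was 0.07026 within wild-type ganglia. Within heterozygous ganglia Mlx was 0.1003, Th 0.1237, Dbh 0.02066 and Npy 0.2325. The 66 do not take in every gene described above, and some of the others changed sign too. Over left-out ganglia Hand2 ran from -0.07616 to 0.1401, Phox2a from -0.1864 to 0.1003 and Plxna4 from -0.09016 to 0.08893. Depth limits the lowest genes most, since Igfbpl1, Neurod1 and Neurod6 had at most 3 counts in any transgene-free ganglion.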
